A study of Mus musculus with 12 samples.

Results

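The genes described here carry glucose into the cell and break it down to lactate. They are 10 genes of the deposited table of 41128, matched by name: the glucose transporters Slc2a1 and Slc2a3, the hexokinases Hk1 and Hk2, phosphofructokinase Pfkp, aldolase Aldoa, and the lower glycolytic enzymes Gapdh, Pgk1, Pkm and Ldha. All 10 were found, and all 10 were among the 12520 genes that reached a value of at least 1 in at least 3 libraries and were tested. RNA was sequenced from splenic lymphocytes of C57BL/6J mice, aged between 6 and 8 weeks, in 12 libraries. There were 4 groups with 3 libraries each, which are female and male resting B cells negative for the surface protein CD43 (libraries 1 to 3 of each sex), and female and male naive CD4+ T cells (libraries 4 to 6 of each sex). The T cells were depleted of other lineages with magnetic beads and then sorted as live CD4+ cells with high CD62L, low CD44 and no CD25. No mouse was labelled as carrying a transgene or as treated, and the series describes its replicates as pools, so errors given here are those between pools of mice.

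Glucose enters lymphocytes through facilitative transporters of the SLC2A (GLUT) family and is trapped by hexokinase as glucose 6-phosphate. Phosphofructokinase commits the sugar to glycolysis, aldolase splits it, and the lower enzymes yield ATP, NADH and pyruvate, which lactate dehydrogenase can turn into lactate. Resting lymphocytes are known for a low glycolytic rate that rises steeply on activation, and the hypoxia factor HIF-1 and MYC are textbook activators of many of these genes.

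Values are adjusted TPM. TPM is a length-corrected share of transcripts, so levels can be compared between genes. How the authors adjusted it is not given in the sources used here. Sequencing depth is unknown, and the deposited lower and upper bounds give the precision: for 9 of the genes the upper bound was at most 1.28 times the lower in every library, and for Hk2 it was up to 5.69 times. Cell identity was clear-cut. The 4 B cell markers (Cd79a, Cd79b, Ms4a1, Pax5) summed to 2220 to 2643 in B and 0.896 to 4.91 in T cell libraries, and the 5 T cell markers (Cd3d, Cd3e, Cd4, Lck, Tcf7) to 9.76 to 14.1 in B and 1017 to 1194 in T cell libraries. Some markers of other states moved with the cell type: 4 of 4 cell cycle genes (Mki67, Top2a, Ccnb1, Cdk1, sums 22.1 to 48.2 in B, 3.47 to 5.47 in T), 3 of 3 platelet genes (4.05 to 16.9 in B, 0.344 to 0.612 in T), 3 of 4 monocyte genes (11.9 to 16.02 in B, 1.07 to 5.34 in T) and 2 of 3 plasma cell genes (sums 56.7 to 137.7 in B, 2.01 to 2.996 in T) were higher in B cells. So were 2 of 3 dendritic genes (sums 1.73 to 6.40 in B, 0.0821 to 0.557 in T), while neutrophil and natural killer sums were at most 2.85 and 0.883 in any library. Prdm1, the remaining plasma cell gene, was higher in T cells (0.521 to 0.932 in B, 1.31 to 1.96 in T). Jchain alone was at 50.7 to 130.9 in B cells. Pf4, Ppbp, Itga2b, Mki67, Ccnb1, Cdk1, Itgax, Xcr1, Adgre1 and Sdc1 were under 1 in every T cell library. They reached the level needed for testing in B cells alone, so they had to differ. Of all tested genes 31.4% were called higher in B cells (limma, adjusted p under 0.05). The 2 CD8 T cell markers lay in opposite directions, Cd8b1 at 5.25 to 8.11 in T and at most 0.0804 in B cells, and Cd8a at 0.0768 to 0.256 in T and 0.591 to 2.31 in B cells. Erythroid sums stood out in male B cell 1 (346.3) and male B cell 3 (197.7), and regulatory T cell sums in female T cell 6 (20.97) and male T cell 6 (17.2) against 1.75 to 3.14 in the other T cell libraries. The part of these markers in the results below was not tested, and in bulk samples fewer cells of a type and less RNA per cell cannot be told apart.

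The promoter windows of 5 of the genes are shown as a selection that includes both directions of change described below: Slc2a1 and Hk2 were higher in B cells, and Hk1, Pgk1 and Ldha in T cells. Each runs from 250 bases before to 50 bases after an annotated start (RefSeq, build GRCm38.p6), 5′ to 3′ on the strand of the gene, and capitals mark ACGTG and GCGTG, the core letters recognised by HIF-1, on either strand (so CACGT and CACGC are the same letters read on the other strand). The Slc2a1 window is chr4:119108495-119108794 (plus strand), that of Hk1 chr10:62340372-62340671 (minus), that of Hk2 chr6:82774405-82774704 (minus), that of Pgk1 chrX:106186850-106187149 (plus) and that of Ldha chr7:46845554-46845853 (plus).
Slc2a1: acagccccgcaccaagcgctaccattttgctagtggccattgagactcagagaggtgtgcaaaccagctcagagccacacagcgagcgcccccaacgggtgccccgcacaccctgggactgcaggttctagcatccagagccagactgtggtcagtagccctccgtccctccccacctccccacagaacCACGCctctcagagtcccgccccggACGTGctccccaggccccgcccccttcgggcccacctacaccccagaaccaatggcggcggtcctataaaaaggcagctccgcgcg
Hk1: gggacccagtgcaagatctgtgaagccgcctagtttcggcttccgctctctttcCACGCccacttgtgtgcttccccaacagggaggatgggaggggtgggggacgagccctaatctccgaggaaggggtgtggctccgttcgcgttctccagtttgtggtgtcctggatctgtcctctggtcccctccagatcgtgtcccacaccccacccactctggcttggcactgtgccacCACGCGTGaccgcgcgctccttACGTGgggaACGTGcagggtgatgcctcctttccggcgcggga
Hk2: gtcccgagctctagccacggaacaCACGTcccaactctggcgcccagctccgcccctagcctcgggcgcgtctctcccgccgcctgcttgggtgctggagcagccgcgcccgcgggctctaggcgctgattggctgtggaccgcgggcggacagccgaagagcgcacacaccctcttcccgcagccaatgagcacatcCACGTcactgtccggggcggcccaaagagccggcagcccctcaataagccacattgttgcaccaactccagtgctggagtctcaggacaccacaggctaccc
Pgk1: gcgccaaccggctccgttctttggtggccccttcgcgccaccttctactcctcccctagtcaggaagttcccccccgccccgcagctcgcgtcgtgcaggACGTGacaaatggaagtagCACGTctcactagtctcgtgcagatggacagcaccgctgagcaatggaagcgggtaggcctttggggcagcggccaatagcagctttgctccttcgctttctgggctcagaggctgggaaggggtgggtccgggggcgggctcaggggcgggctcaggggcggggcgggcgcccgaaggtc
Ldha: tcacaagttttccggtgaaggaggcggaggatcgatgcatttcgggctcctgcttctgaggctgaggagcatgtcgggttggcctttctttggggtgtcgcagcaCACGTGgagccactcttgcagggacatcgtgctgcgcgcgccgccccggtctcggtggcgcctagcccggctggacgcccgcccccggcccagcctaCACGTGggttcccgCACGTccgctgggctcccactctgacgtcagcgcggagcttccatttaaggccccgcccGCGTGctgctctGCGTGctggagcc
The table of promoters held 14 windows for 9 of the 10 genes, with Slc2a3 the gene without an entry. Hk1 and Ldha each had a further window, which held 0 and 2 matches of either core, so the window with more matches is the one printed. Pfkp (4 matches) and Pkm (0 and 2 in its windows), which were also higher in T cells, are not printed. The windows without a match, of Hk1, Pkm and Aldoa, are thus not among those shown. Either core was present in 11 of these 14 windows, against 43.8% of 32851 windows of the same length over all genes (ACGTG in 19.6%, GCGTG in 32.4%). Of the 3 Aldoa windows 2 overlap and hold the same match, which is therefore counted in both. GC content of the printed windows was 63.3% to 67.3%, against a median of 52.7% over all windows, and the part of base composition in these matches was not tested. The Slc2a1 and Hk2 windows held 2 matches each, as did the Pgk1 window, where ACGTG lies on both strands. The Hk1 window held 5 matches and the Ldha window 7. CACGTG, the E-box that MYC and the glucose-sensing MLX proteins recognise, was found in 7.15% of all windows and in a single window of these genes, that of Ldha, which held it at 2 places. Each CACGTG contains ACGTG on both strands and counts as 2 of the 7 matches there. A match describes letters and shows no binding.

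The cell types were compared first, as the main contrast of the design. Ldha, Pkm, Hk1, Pfkp and Pgk1 had higher levels in T cells, between 1.58 and 2.53 times by the means, whereas Slc2a1 and Hk2 were higher in B cells. Slc2a3, Aldoa and Gapdh did not pass the test. The transcripts for these 10 enzymes and transporters therefore did not move as a block between the cell types. Of the 10 genes 7 passed the threshold of an adjusted p under 0.05 (limma), 2 towards B and 5 towards T cells, and in the same 7 the 6 B and 6 T cell libraries did not overlap. These shares are to be read against the whole table, in which 73.0% of tested genes passed, 31.4% towards B and 41.6% towards T cells, and 53.9% had no overlap. Hk2 is among the 7 and had to differ, because it reached the level needed for testing in B cells alone. The median difference on the log2 scale (B minus T, of adjusted TPM + 1) was -0.41 over the 10 genes and -0.09 over all tested genes.

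**Figure D1:**
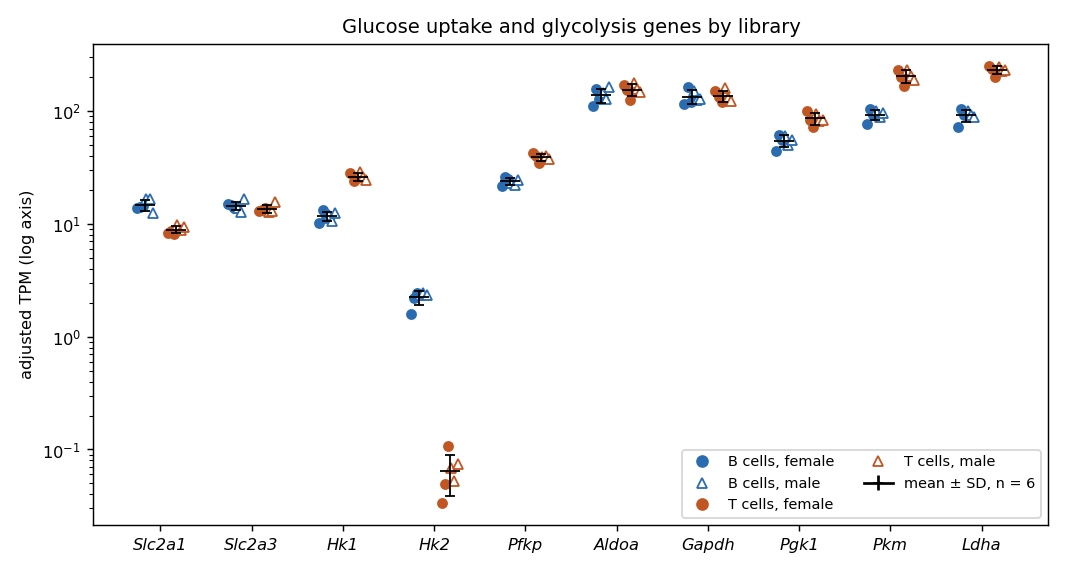
Adjusted TPM (log axis) of the 10 genes in each of the 12 libraries, B cells in blue and T cells in orange, circles for female and triangles for male libraries, with mean ± SD over 6 libraries of a cell type. The T cell points lie above the B cell points for Hk1, Pfkp, Pgk1, Pkm and Ldha and below them for Slc2a1 and Hk2, while Slc2a3, Aldoa and Gapdh overlap.

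Among the transporters, Slc2a1 (GLUT1, chr4:119108711-119137983 in GRCm38) is the carrier that rises on lymphocyte activation. Its adjusted TPM in B cells was 12.5 at the lowest, 14.2 at the median and 16.6 at the highest, and in T cells 8.22, 8.79 and 9.75. Every B cell library was above every T cell library. The mean of 14.6 ± 1.60 (SD, n = 6) in B cells was 1.64 times that of 8.90 ± 0.599 (SD, n = 6) in T cells. This is 0.66 ± 0.07 on the log2 scale (SE, limma, adjusted p = 1.80e-06). Slc2a3 (GLUT3, chr6:122727809-122801640) is a high-affinity transporter of neurons and leukocytes. It ran from 12.9 through 14.4 to 16.5 in B cells and from 12.8 through 13.3 to 15.6 in T cells. The ranges lay nearly on top of each other, and the log2 fold change of 0.08 (95% interval -0.07 to 0.23) did not pass (limma, adjusted p = 0.296). It passed towards B cells under 3 of the other 4 scalings between libraries described below. Summed over both transporters, B cells held 29.1 ± 0.691 and T cells 22.5 ± 1.29 adjusted TPM (SD, n = 6).

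The balance of the transporters can be read within a library, where no scaling between libraries enters. For each of 6 such ratios, the mean log2 ratio of 6 B and 6 T cell libraries was compared by a two-sided exact permutation test. Its smallest possible p is 0.00216. The test takes the 12 libraries as separate units, although same-numbered female and male T cell libraries deviated together. No p is given for the ratios of Hk2, Pfkm, Aldoc and Ldhb, which each passed the filter on low values through a single cell type and so had to differ. An adjustment over the 6 ratios would count these as well, so p is given unadjusted for the others. Slc2a3 ranged from 0.775 to 1.32 times Slc2a1 in B cells, with the median at 1.02, and from 1.31 to 1.697 times in T cells, with the median at 1.54. Only the highest B cell library, male B cell 3, reached the T cell range. The mean log2 ratio differed by 0.63 (exact permutation p = 0.0043, unadjusted). With same-numbered T cell libraries averaged, which leaves 3 T cell units, p was 0.0119, the smallest that 6 against 3 allows (exact permutation).

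The hexokinases showed opposite directions. Hk1 (chr10:62268855-62379908), the broadly expressed isozyme bound to mitochondria, ran from 10.2 through 11.7 to 13.3 adjusted TPM in B cells and from 24.3 through 25.6 to 28.8 in T cells. All T cell libraries were above all B cell libraries. Means were 11.7 ± 1.19 and 26.2 ± 1.93 (SD, n = 6), 2.24 times higher in T cells, with a log2 fold change of -1.10 ± 0.07 (SE, limma, adjusted p = 2.15e-08). Hk2 (chr6:82725025-82774454), the inducible isozyme of muscle, tumours and activated lymphocytes, had 1.59, 2.22 and 2.45 in female and 2.35, 2.46 and 2.36 in male B cell libraries. It stayed between 0.0335 and 0.108 in all T cell libraries, with deposited upper bounds of at most 0.158. Hk2 passed the filter on low values through the B cells alone, so it had to differ and no p is given for it. Its log2 fold change was 1.60 ± 0.07 (SE, limma), a size held down by the pseudocount of 1, and 3.83 with a pseudocount of 0.1. The cell cycle genes listed above were higher in the same B cell libraries, and their part in the Hk2 level was not tested. Within a library, Hk2 stood at 0.155 to 0.230 of Hk1 in B cells and at 0.00119 to 0.0042 in T cells. As a share of Hk1, Hk2 and Hk3 together, Hk2 made up 13.1% to 18.3% in B cells and 0.118% to 0.419% in T cells. The sum of the 3 hexokinases was nonetheless higher in T cells, at 26.3 ± 1.91 against 14.3 ± 1.42 (SD, n = 6).

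**Figure D2:**
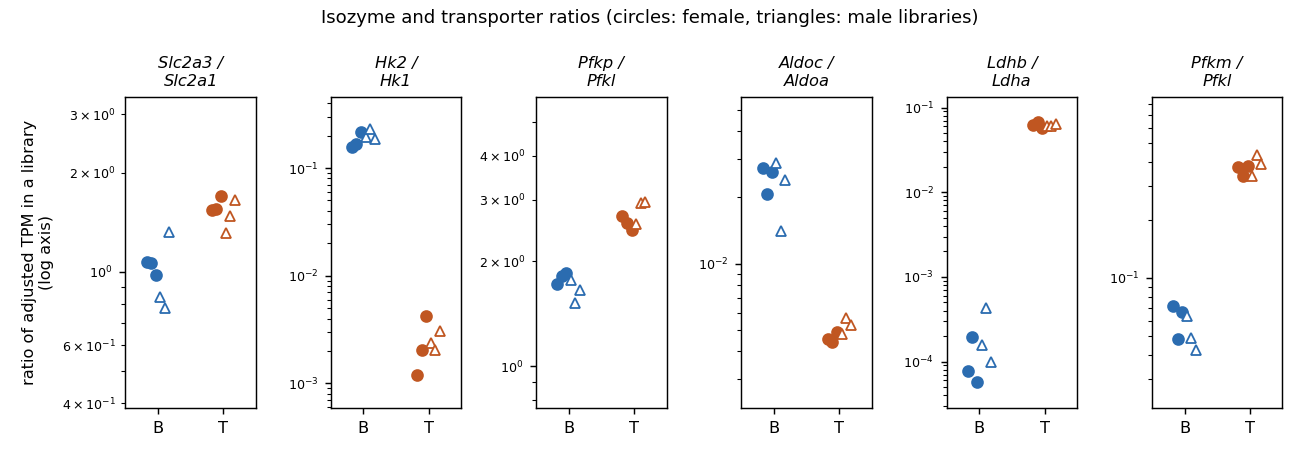
Ratio of adjusted TPM of an isozyme or transporter pair within each library (log axis, a separate scale per panel), B cells in blue, T cells in orange, circles female and triangles male. B and T cell points are separate in 5 panels, and in the Slc2a3 to Slc2a1 panel the highest B cell point (1.32) reaches the lowest T cell point (1.31).

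At the committed step, Pfkp (chr13:6579768-6648777), the platelet-type phosphofructokinase and the leading isoform here, ran from 21.7 through 24.05 to 26.01 in B cells and from 34.7 through 39.6 to 42.4 in T cells. The cell types did not overlap. Means of 23.8 ± 1.78 and 38.96 ± 2.63 (SD, n = 6) gave a log2 fold change of -0.69 ± 0.06 (SE, limma, adjusted p = 6.28e-07). Pfkl, the liver-type isoform, was at 13.9 ± 0.879 and 14.5 ± 1.24 (SD, n = 6) and did not pass (log2 fold change -0.06, limma, adjusted p = 0.396). Pfkm, the muscle-type isoform, was below 1 in every B cell library (0.634 to 0.909) and at 4.92 to 5.98 in T cells, and therefore passed the filter through the T cells alone. In ratio to Pfkl within a library, Pfkp stood at 1.52 to 1.84 in B and 2.45 to 2.96 in T cells. The exact permutation p was 0.0022 (unadjusted), and 0.0119 with same-numbered T cell libraries averaged. The ratio of Pfkm to Pfkl was 0.0424 to 0.0715 in B and 0.337 to 0.436 in T cells. Pfkm made up 1.57% to 2.56% of the phosphofructokinase sum in B cells and 8.63% to 10.0% in T cells.

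Aldoa (chr7:126795234-126800751), the aldolase of most tissues, had the highest mean of the 10 genes in B cells. Its values ran from 112.2 through 136.7 to 162.7 in B and from 124.7 through 155.0 to 179.3 in T cells. The ranges overlapped over most of their length, and the log2 fold change of -0.16 (95% interval -0.39 to 0.06) did not pass (limma, adjusted p = 0.170). Without both T cell libraries numbered 6, in which regulatory T cell markers were high, it was -0.25 with an adjusted p of 0.0484 by limma, a setting chosen after seeing the data. Aldoc, the brain-type aldolase, was higher in B cells at 3.25 ± 0.825 against 0.763 ± 0.106 (SD, n = 6), and was under 1 in every T cell library, so that it passed the filter through the B cells alone. It stood at 0.0141 to 0.0287 of Aldoa in B and at 0.00443 to 0.00565 in T cells.

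Gapdh (chr6:125161715-125166467), which makes NADH from glyceraldehyde 3-phosphate and serves as a reference gene in many assays, ran from 116.7 through 127.6 to 165.6 in B and from 120.3 through 132.4 to 159.4 in T cells. The T cell range lay inside that of the B cells. The log2 fold change was -0.02 (95% interval -0.25 to 0.20, limma, adjusted p = 0.835), and its sign turned under other scalings. The annotation holds 77 other genes with a transcript at least 95% identical to Gapdh over at least 200 bases, 71 of them are in the table, and they summed to 5.54% to 7.74% of the Gapdh value. How the authors' counting split reads between Gapdh and these copies is not given in the sources used here, so the Gapdh level is uncertain to that extent. Pgk1 (chrX:106187100-106203699), the next enzyme and the first step that returns ATP, ran from 44.3 through 55.4 to 61.8 in B and from 72.2 through 83.7 to 100.6 in T cells. No B cell library reached the T cell range. Its means of 54.5 ± 6.54 and 86.2 ± 10.1 (SD, n = 6) gave a log2 fold change of -0.65 ± 0.10 (SE, limma, adjusted p = 5.41e-05). Its near-identical copies in the table, led by Pgk1-rs7, came to 2.00% to 3.30% of the Pgk1 value.

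Pkm (chr9:59656368-59679375) encodes the pyruvate kinases M1 and M2, which the gene-level table does not separate. In B cells it had 77.5, 103.8 and 91.8 in female and 101.4, 88.0 and 96.2 in male libraries, and in T cells 232.6, 202.2 and 167.8 in female and 233.9, 206.1 and 188.1 in male libraries. The lowest T cell value, in female T cell 6, was well above the highest B cell value. Pkm was 2.20 times higher in T cells by the means (93.1 ± 9.63 and 205.1 ± 25.6, SD, n = 6), with a log2 fold change of -1.13 ± 0.10 (SE, limma, adjusted p = 2.45e-07). Ldha (chr7:46841475-46855627), the subunit that favours lactate formation, had the largest difference towards T cells of the 10 genes. Female B cell libraries were at 72.1, 104.1 and 92.3 and male at 101.1, 92.3 and 89.04, while female T cell libraries were at 252.6, 235.6 and 201.4 and male at 245.5, 227.9 and 231.8. Means of 91.8 ± 11.3 and 232.5 ± 17.7 (SD, n = 6) differed 2.53 times, and the log2 fold change was -1.34 ± 0.09 (SE, limma, adjusted p = 2.12e-08).

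Ldhb, the other lactate dehydrogenase subunit, is known for favouring pyruvate. It was at 0.00524 to 0.0393 adjusted TPM in B cells and at 11.6 to 15.9 in T cells (log2 fold change -3.92 ± 0.07, SE, limma). The B cell values have little precision, with upper bounds up to 275 times the lower. Ldhb passed the filter through the T cells alone, so it had to differ and no p is given for it. Ldhb made up 5.43% to 6.31% of the lactate dehydrogenase sum in T cells and 0.00568% to 0.0425% in B cells. Both subunits were thus higher in T cells, and Ldha remained the bulk of the sum in each library.

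The order of levels within a cell type also changed. In B cells Aldoa (138.7 ± 19.3) and Gapdh (134.4 ± 19.2) led, Pkm (93.1) and Ldha (91.8) followed, and then came Pgk1, Pfkp, Slc2a1, Slc2a3, Hk1 and Hk2. The neighbouring pairs Aldoa and Gapdh, Pkm and Ldha, and Slc2a1 and Slc2a3 overlapped and were each in that order in 3 of 6 libraries, so they are not separated beyond their spread. Slc2a3 and Hk1 also overlapped in range, with Slc2a3 above Hk1 in 6 of 6 libraries. In T cells Ldha (232.5 ± 17.7) and Pkm (205.1 ± 25.6) led, before Aldoa, Gapdh, Pgk1, Pfkp, Hk1, Slc2a3, Slc2a1 and Hk2. The ranges of Ldha and Pkm, of Pkm and Aldoa, and of Aldoa and Gapdh overlapped, although the order held in 6 of 6 libraries. Ranked among the protein-coding genes of each library, Ldha lay between positions 199 and 218 in T cells and between 540 and 798 in B cells. Hk1 lay between 2701 and 3212 in T cells and between 5211 and 5876 in B cells. Aldoa and Gapdh kept to positions 291 to 473 in both cell types. Divided by Gapdh of the same library, Ldha was at 0.618 to 0.772 in B and 1.54 to 1.87 in T cells, and Pkm at 0.627 to 0.767 in B and 1.40 to 1.56 in T cells. These ratios do not depend on the scaling between libraries. Those of Slc2a1, Hk1, Pfkp and Pgk1 did not overlap between the cell types either. Nor did that of Hk2, which passed the filter on low values through the B cells alone and had to differ. How often ratios of other genes to Gapdh separate was not counted, and 53.9% of all tested genes had no overlap without that division.

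The direction of change depended on the scaling for the genes with the smallest differences. Rescaling every library to a total of 1000000 moved the median over the whole table from -0.09 to 0.25, a shift towards B cells. The noncoding RNAs Rn7sk and Yam1 alone took 11.4% to 37.4% of the total as the top gene of a library. Under that scaling, by limma, Pfkp (-0.32, adjusted p = 0.157) and Pgk1 (-0.28, adjusted p = 0.240) no longer passed, Slc2a3 passed towards B cells (0.44, adjusted p = 0.0395), and Aldoa (0.22) and Gapdh (0.36) turned sign without passing. Rescaling to the same protein-coding total, chosen after seeing the data, moved that median to 0.16. Pfkp (-0.41) and Pgk1 (-0.37) then passed by limma, as did Slc2a3 (0.35, adjusted p = 0.0031) and Gapdh (0.26, adjusted p = 0.0339) towards B cells, and Aldoa (0.12) did not. Median-ratio scaling also put Slc2a3 past the threshold (0.16, limma, adjusted p = 0.0478). Slc2a1, Hk1, Pkm and Ldha kept their direction and passed under all 5 scalings, limma being the test in each. So did Hk2, which had to differ because it passed the filter through the B cells alone.

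**Figure D3:**
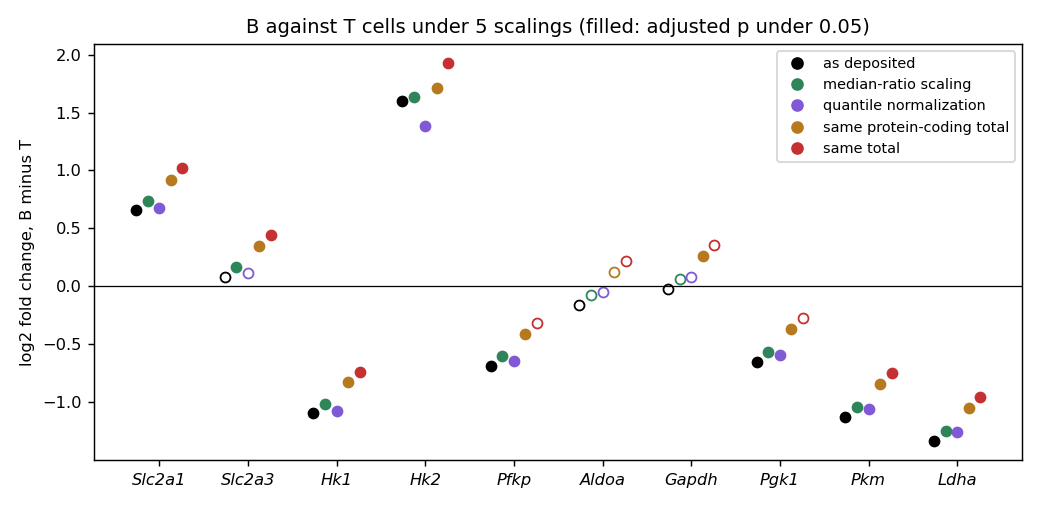
Log2 fold change (B minus T) of the 10 genes under the deposited scaling and 4 others, filled where the adjusted p was under 0.05 (limma). All 10 genes lie higher with the same total than under the deposited scaling, but not each scaling between moves them up. Under quantile normalization Hk2 lies lower (1.39) than as deposited (1.60). Slc2a1, Hk1, Pkm and Ldha stay filled on their own side of 0 throughout, as does Hk2, which passed the filter through the B cells alone.

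The wider pathway was followed in 7 lists of 86 genes beside the 10. Of the 86 genes 66 were tested and 20 stayed under the filter, with no value above 1.14. Among the 66, 23 were higher in B cells, 19 were higher in T cells and 24 did not pass, and the libraries of the cell types did not overlap for 35. This is 42 of 66 past the threshold and 35 of 66 without overlap, beside the backgrounds of 73.0% and 53.9% given above. Slc2a6, Aldoc and Slc16a7 were under 1 in every T cell library, and Ldhb and Pfkm in every B cell library, so they had to differ. The counts of each list below are to be read against the same background, 31.4% of tested genes higher in B and 41.6% higher in T cells. The median log2 fold change was 0.05.

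Of the other isoforms of the 10 genes, 7 of 19 were tested, with 3 higher in B (Slc2a6, Aldoc, Slc2a8), 3 higher in T (Ldhb, Pfkm, Slc2a9) and Pfkl not past the threshold. Slc2a6 (GLUT6), a transporter of leukocytes and spleen held inside the cell, ran from 5.10 through 5.73 to 6.85 in B cells and stayed between 0.215 and 0.511 in T cells. It passed the filter through the B cells alone and so had to differ, with a log2 fold change of 2.37 ± 0.07 (SE, limma). Slc2a4, the insulin-responsive GLUT4, stayed under 0.001 in all libraries.

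Of the remaining glycolytic steps, 6 of 8 genes were tested, with 3 higher in B cells, 1 higher in T cells and 2 (Gpi1 and Eno3) not past the threshold. Eno1, the main enolase, moved with Pkm and Ldha: it ran from 84.2 to 117.2 in B and from 181.4 to 233.2 in T cells (log2 fold change -1.03 ± 0.09, SE, limma, adjusted p = 1.94e-07). Tpi1, which interconverts the triose phosphates, lay in the opposite direction with 23.0 to 31.4 in B and 13.8 to 19.01 in T cells (0.66 ± 0.09, SE, limma, adjusted p = 3.07e-05). Pgam1, the phosphoglycerate mutase, was also higher in B cells (39.8 ± 3.85 against 29.4 ± 3.58, SD, n = 6), though its ranges overlapped, and so was the low muscle form Pgam2 (2.13 ± 0.496 against 1.38 ± 0.184, SD, n = 6). Pgam2 did not pass in the male libraries alone (0.28, limma, adjusted p = 0.0636). Higher levels in T cells thus did not extend to each enzyme after aldolase. Tpi1 and Pgam1 lay towards B cells and Gapdh did not pass, beside Pgk1, Eno1, Pkm and Ldha towards T cells.

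**Figure D4:**
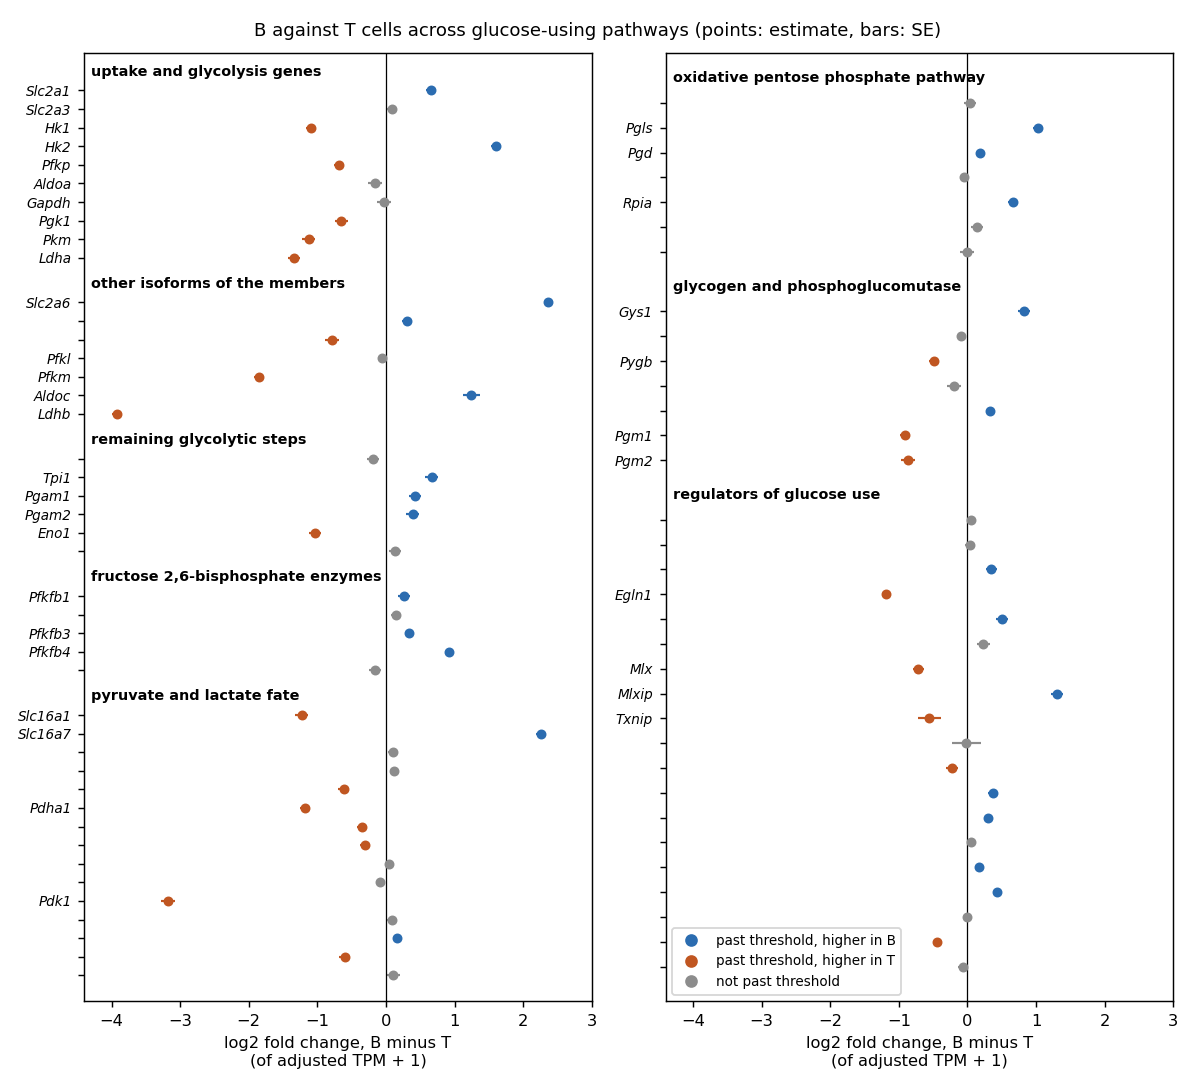
Log2 fold change, B minus T, of adjusted TPM + 1 (points, with SE as bars) for the 10 genes and the 66 tested genes of the 7 pathway lists, blue for higher in B, orange for higher in T and grey for not past the threshold, with names for the 10 genes, the largest called changes of each list and Pfkl. The 10 genes spread from -1.34 (Ldha) to 1.60 (Hk2), and the lists from -3.92 (Ldhb) to 2.37 (Slc2a6).

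The enzymes that make or remove fructose 2,6-bisphosphate, the allosteric activator of phosphofructokinase, were all 5 tested, and 3 were higher in B, none in T and 2 (Pfkfb2 and Tigar) did not pass. Pfkfb4 ran from 7.53 to 9.05 in B and from 3.57 to 4.31 in T cells (log2 fold change 0.92 ± 0.06, SE, limma, adjusted p = 2.36e-08). Pfkfb3, an isoform with high kinase activity, was at 13.3 ± 0.875 and 10.2 ± 0.587 (SD, n = 6, 0.34, limma, adjusted p = 0.000178). The third, Pfkfb1, was low (1.41 ± 0.158 against 1.02 ± 0.315, SD, n = 6, log2 fold change 0.26), and did not pass in the female libraries alone (0.18, limma, adjusted p = 0.267), under quantile normalization (0.10, adjusted p = 0.280) or without male B cells 1 and 3 (0.20, adjusted p = 0.133).

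Of 17 genes on the fate of pyruvate and lactate 15 were tested, with 2 higher in B, 7 higher in T and 6 not past the threshold. Over all tested genes 31.4% were higher in B and 41.6% higher in T cells. Pdk1, a kinase that switches off pyruvate dehydrogenase, had the largest difference of this list. It had 20.9, 21.5 and 20.1 in female and 20.5, 16.7 and 26.6 in male B cell libraries, and 205.4, 193.0 and 164.6 in female and 226.9, 216.2 and 181.4 in male T cell libraries. All T cell values were far above all B cell values, with a log2 fold change of -3.18 ± 0.10 (SE, limma, adjusted p = 9.76e-12). Pdha1, a subunit of the enzyme that Pdk1 inhibits, was also higher in T cells (88.3 ± 8.22 against 38.5 ± 2.67, SD, n = 6, log2 fold change -1.18, limma, adjusted p = 7.80e-09). Pdk3 of the same list was slightly higher in B cells (0.17, limma, adjusted p = 0.0404), though its ranges overlapped. Pdp1, Mpc2, Pdhb and Dlat were higher in T cells. The monocarboxylate transporters of lactate and pyruvate lay in opposite directions. Slc16a1 (MCT1) was higher in T cells with 11.9 to 15.7 against 3.85 to 6.13 (-1.23 ± 0.09, SE, limma, adjusted p = 7.64e-08). Slc16a7 (MCT2) was higher in B cells with 3.64 to 4.88 against 0.0370 to 0.163 (2.26 ± 0.07, SE, limma). It passed the filter through the B cells alone and so had to differ. Slc16a3 (MCT4), the lactate exporter of highly glycolytic cells, was under the filter with at most 1.00.

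All 7 genes of the pentose phosphate pathway, which draws glucose 6-phosphate off for NADPH and ribose, were tested. Pgls, Rpia and Pgd were higher in B cells, none was higher in T cells and 4 (G6pdx, Rpe, Tkt, Taldo1) did not pass. Pgls, the lactonase of the oxidative branch, was at 50.1 ± 3.74 in B and 24.1 ± 2.12 in T cells (SD, n = 6, log2 fold change 1.03, limma, adjusted p = 1.74e-08). Rpia, which makes ribose 5-phosphate, was at 27.9 ± 1.33 and 17.3 ± 1.71 (SD, n = 6, 0.66, limma, adjusted p = 1.33e-06), and Pgd at 18.3 ± 0.972 and 15.99 ± 1.06 (SD, n = 6, 0.19, limma, adjusted p = 0.0081). Pgd did not pass in the male libraries alone (0.15, limma, adjusted p = 0.148). G6pdx, the entry enzyme, had a log2 fold change of 0.03.

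Of 8 genes of glycogen and phosphoglucomutase 7 were tested, with 2 higher in B (Gys1 and Ugp2), 3 higher in T and 2 not past the threshold. Gys1, glycogen synthase, was higher in B cells (6.29 ± 0.669 against 3.12 ± 0.371, SD, n = 6). The phosphoglucomutases Pgm1 (6.49 ± 0.620 against 13.04 ± 1.11, SD, n = 6) and Pgm2 (7.22 ± 1.06 against 14.02 ± 1.74, SD, n = 6) were higher in T cells, as was the glycogen phosphorylase Pygb (23.0 ± 1.55 against 32.8 ± 2.83, SD, n = 6). Log2 fold changes of Gys1, Pgm1, Pgm2 and Pygb were 0.82, -0.91, -0.87 and -0.49 (limma, largest adjusted p = 2.70e-05, that of Pygb). Pygb did not pass with every library rescaled to the same total (-0.12, limma, adjusted p = 0.608).

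Among 22 regulators of glucose use 19 were tested, with 7 higher in B, 5 higher in T and 7 not past the threshold. Mlxip (MondoA), a glucose-sensing transcription factor, was at 22.5 ± 1.83 in B and 8.54 ± 1.09 in T cells (SD, n = 6, log2 fold change 1.31, limma, adjusted p = 1.17e-08). Its partner Mlx lay in the opposite direction (23.3 ± 2.71 against 38.9 ± 3.67, SD, n = 6, -0.72, limma, adjusted p = 3.61e-06), and did not pass with every library rescaled to the same total (-0.35, limma, adjusted p = 0.114). Egln1, the prolyl hydroxylase that marks HIF-1 for destruction, was higher in T cells (9.61 ± 0.688 against 23.1 ± 1.76, SD, n = 6, -1.18, limma, adjusted p = 1.07e-09). Txnip, an inhibitor of glucose uptake that glucose induces, was higher in T cells (280.0 ± 59.5 against 412.7 ± 91.1, SD, n = 6, -0.56, limma, adjusted p = 0.0098), with ranges that overlapped. Its call was lost with every library rescaled to the same total (-0.18, limma, adjusted p = 0.524) and in 6 other settings, among them the fit without both T cell libraries numbered 6 (-0.37, limma, adjusted p = 0.0543). Hif1a itself was at 57.3 ± 4.16 and 55.2 ± 3.31 (SD, n = 6) and did not pass (log2 fold change 0.05, limma, adjusted p = 0.436), nor did its partner Arnt. Myc was at 25.8 ± 3.53 and 21.8 ± 3.12 (SD, n = 6, 0.23), just short of the threshold by limma with an adjusted p of 0.0504.

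Female and male libraries were compared within each cell type as the other factor of the design. The deposited sample names hold a further digit, whose meaning is not given in the sources used here. Within each cell type this digit follows sex, and it swaps between the cell types. Sex effects and their difference therefore cannot be told apart from whatever it stands for. None of the 10 genes passed in B cells or in T cells, nor did the difference of the sex effects for any of them (limma), and none had an unadjusted p under 0.05. Over the whole table, 0.144% of tested genes passed in B cells, 0.104% in T cells and 0% for the difference of the effects, where 295 of 12520 had an unadjusted p under 0.05. In T cells fitted alone, 10 genes of the table passed between the sexes without and 5 with the replicate number as a block, none of them among the 10. Log2 fold changes, female minus male, of the 10 genes ran from -0.15 to 0.05 in B cells and from -0.14 to -0.0024 in T cells. The smallest unadjusted p in B cells was that of Hk2 (log2 fold change -0.15, 95% interval -0.37 to 0.08, unadjusted p = 0.185, limma), and in T cells that of Slc2a1 (-0.14, 95% interval -0.35 to 0.07, unadjusted p = 0.184, limma). For the difference of the effects it was again Hk2 (-0.14, 95% interval -0.46 to 0.18, unadjusted p = 0.348, limma). Pgk1, the X-linked gene of the 10, had 53.8 ± 8.86 in female and 55.2 ± 5.20 in male B cells, and 85.7 ± 14.3 in female and 86.8 ± 7.18 in male T cells (SD, n = 3). Its log2 fold changes were -0.05 (95% interval -0.35 to 0.25) and -0.03 (-0.33 to 0.27). Each interval of the 10 genes spanned 0, which does not show that the sexes are alike. Of the 66 tested list genes none passed in any of these contrasts either, and 1 had an unadjusted p under 0.05 in B cells, 0 in T cells and 1 for the difference of the effects.

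Within a cell type, several of the genes moved up and down together across libraries. Female B cell 1 had the lowest of the 6 B cell values for 8 of the 10 genes, while it was the lowest for 28.4% of all tested genes. Its median deviation from the B cell mean was -0.22 on the log2 scale over the 10 genes and -0.04 over all tested genes. In the same library Yam1 took 32.2% of the total and protein-coding genes 42.7%, against 54.7% to 68.0% for protein-coding genes in the other B cell libraries. Female B cell 2 was the highest for 6 of the 10 (18.1% of all tested genes), with a median deviation of 0.17 over the 10 and 0.02 over all tested genes. Among T cells, female T cell 6 was the lowest for 7 of the 10 (27.4% of all tested genes) with a median deviation of -0.17, and male T cell 4 was the highest for 5 (20.4% of all tested genes) with a median deviation of 0.13. Over all tested genes these medians were -0.02 and 0.01. Slc2a3 went another way, being highest in male B cell 3 and male T cell 6. These are 10 genes of the same libraries and no test was made of their joint movement. The sum of 5 dissociation stress genes (Fos, Jun, Egr1, Hspa1a, Dusp1) was highest of the B cells in female B cell 1 (354.7, others 95.3 to 238.2), where most of the 10 genes were lowest, and highest of the T cells in male T cell 4 (459.9) and female T cell 4 (420.3), where most were high. The part of these genes and of the Yam1 share in the deviations was not tested. The pooled SD within groups was between 0.11 and 0.20 for the 10 genes, against a median of 0.14 over all tested genes.

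**Figure D5:**
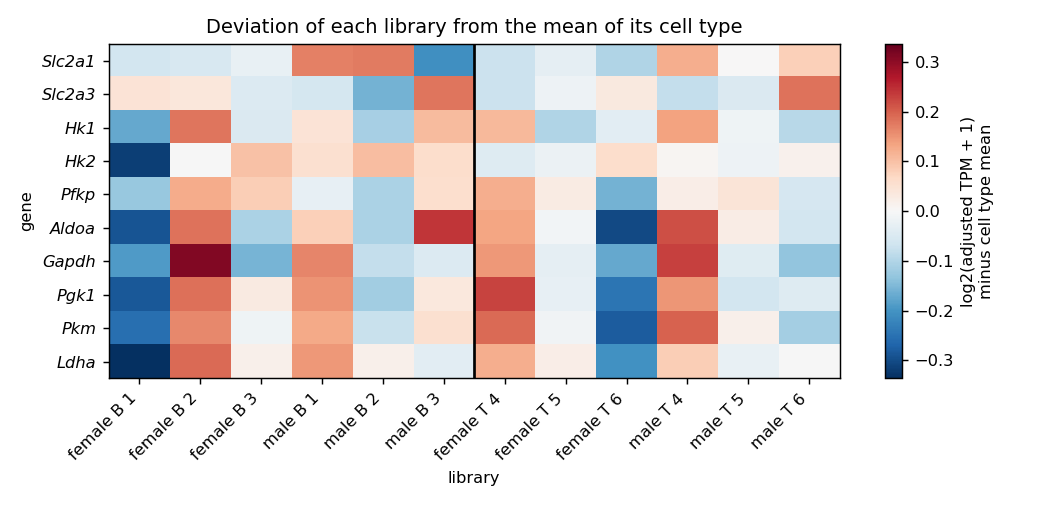
Deviation of log2(adjusted TPM + 1) from the mean of the cell type for each of the 10 genes (rows) in each library (columns, red above, blue below, the line separates B from T cells). Female B cell 1 is below the mean for 9 of 10 genes and female T cell 6 for 8 of 10.

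For each gene, the tested protein-coding genes with the most similar profile over the 12 libraries were found by the root mean square distance between log2 values centred on each gene's own mean. The nearest to Ldha were N6amt2 (0.06) and Rpl12 (0.07), to Pkm Rps28 (0.06) and Ptpn18 (0.06), and to Pgk1 Cdc37 (0.04) and Rpl7a (0.04). Rpl12, Rps28 and Rpl7a encode ribosomal proteins. To Hk1 they were Slc37a1 (0.06), a sugar-phosphate transporter, and Cmas (0.06), to Hk2 Wdfy2 (0.07) and Ahr (0.08), to Pfkp Dars (0.05) and Ncbp1 (0.05), and to Aldoa Commd9 (0.05) and Grcc10 (0.07). For Gapdh Atp5d (0.05), a subunit of ATP synthase, and Vasp (0.07) were nearest, for Slc2a1 Mms22l (0.09) and Elmod3 (0.09), and for Slc2a3 Dfna5 (0.05) and Tbc1d8b (0.06). Within a distance of 0.1 lay 169 genes for Slc2a3, 138 for Pfkp, 106 for Pgk1 and 6 for Hk2. The Slc2a3 profile itself had a root mean square of only 0.11 about its own mean, so a nearly flat profile already lies close to it. None of the 10 genes was among the 2 nearest of another.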

How the data were processed

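RNA expression was analysed in 12 libraries, grouped by the labels into female and male B cells and female and male T cells, 3 of each. Per the labels, RNA was depleted of ribosomal RNA and made into stranded libraries. Some label fields name genomic DNA, and the values were treated as RNA. The authors deposited a signal for 41128 genes, called adjusted TPM, with a lower and an upper bound in each library. Their processing notes name Trim Galore, FastQC, STAR and mm10. The quantification tool, the adjustment and the level of the bounds are not given in the sources used here. Values are not counts, so depth is unknown and only the bounds give the precision. Totals ran from 561020 to 1453940.

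The 12520 genes that reached a value of 1 in 3 or more libraries were tested with limma 3.58.1 (R 4.3.3) on log2(adjusted TPM + 1), with 1 coefficient per group, a mean-variance trend and Benjamini-Hochberg adjustment over all tested genes, and a call is an adjusted p under 0.05. A fold change on this scale understates the change of low genes. Ratios within a library were compared by exact permutation (scipy 1.17.1, Python 3.11.15, numpy 2.4.6, pandas 2.3.3). Gene positions come from GENCODE M21 (GRCm38), which held 97.9% of the identifiers, copies from blastn 2.17.0+ on its transcripts, and plots from matplotlib 3.10.9. The fits were tested on simulated data. All 10 genes, their isozymes in the ratios, the 4 largest called changes of each list and the 2 nearest profiles are named. Hif1a, Arnt, Myc, Pfkl, Slc2a4, Slc2a8, Slc2a9, Ugp2, Slc16a3, Pdk3, Pdp1, Mpc2, Pdhb, Dlat, G6pdx and other genes not past the threshold are named in addition. The genes and lists were chosen with earlier results of these data known. A few genes of these lists are not reported here. Same-numbered female and male T cell libraries deviated together (r 0.52 to 0.72 between deviations from group means) and B cell libraries did not (r -0.34 to -0.04), so a replicate block was fitted as an alternative for the sexes, and averages of same-numbered T cell libraries for the cell types. Other alternatives were 4 scalings, a pseudocount of 0.1, other filters, no trend, each sex alone and each library left out.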

Additional observations from a re-analysis of the deposited data

Results flagged for a closer look

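Among 72 sets of 6 libraries (a named gene in a cell type), 3 held a library whose gap to the nearest other exceeded the 95% Dixon limit for 6 samples, as a share of the range, a limit that chance exceeds in about 1 of 20 sets. Hk2 was lowest in female B cell 1, at 1.59 adjusted TPM against 2.22 to 2.46 in the other 5 B cell libraries. Pfkfb1 was highest in female T cell 6, at 1.62 against 0.674 to 1.01 in the other T cell libraries. Mlxip was lowest in male B cell 1, at 18.9 against 22.5 to 24.02 in the other B cell libraries.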

How the results depend on the processing

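The 7 calls among the 10 genes held in each fit that left out a library, that of Hk2 being fixed by the filter on low values. Gapdh, not called, ran from -0.11 to 0.028 in those fits and turned positive in 4 of them. When each library was set to a total of 1000000, 3 of the 10 genes were higher in T cells and 10 list genes were, in place of 5 and 19, and Aldoa (0.22) and Gapdh (0.36) turned sign. With the same protein-coding total, 4 of the 10 and 40 list genes were higher in B cells, in place of 2 and 23, and Aldoa (0.12) and Gapdh (0.26) turned sign. Gapdh was also positive under median-ratio scaling (0.061) and quantile normalization (0.081). Over all tested genes, the split of calls moved from 3926 higher in B and 5208 higher in T to 4812 and 1985 with the same total, 5680 and 2956 with the same protein-coding total and 4536 and 4514 under median-ratio scaling. With a filter of at least 5 in at least 6 libraries, Hk2 was not tested and 1 of the 10 was higher in B cells. In female libraries alone the log2 ratios differed, B minus T, by -0.62 (Slc2a3 to Slc2a1), 6.35 (Hk2 to Hk1), -0.52 (Pfkp to Pfkl), 2.41 (Aldoc to Aldoa), -9.34 (Ldhb to Ldha) and -2.57 (Pfkm to Pfkl), and in male libraries alone by -0.63, 6.38, -0.77, 2.03, -8.35 and -2.92 in the same order. An exact permutation p of 3 against 3 libraries cannot go below 0.1, and for Slc2a3 to Slc2a1 in males it was 0.2. Ratios with a gene near 0 depend on the pseudocount. With 1 added to both genes, over all 12 libraries, Hk2 to Hk1 differed by 2.70 in place of 6.36. Ldhb to Ldha then differed by -2.58 in place of -8.85. In the paired fit with a replicate block in a single cell type, 0 of the 10 genes passed between the sexes in B cells and 0 in T cells, as without the block. Over the table, 5 genes passed in B cells with and without the block, and 5 with and 10 without it in T cells, against 18 and 13 in the fit of all 12 libraries. B and T cells share no replicate numbers, so their comparison was not paired. With same-numbered T cell libraries averaged, the same counts of the 10 genes passed (2 higher in B and 5 in T cells), 41 list genes did in place of 42, and 8523 of all tested genes in place of 9134. Choices made after seeing the data were the protein-coding total, the averaged T cell libraries and the fits without both T cell libraries numbered 6 or without male B cells 1 and 3. Unknown depth limits what can be said of values far under 1, such as Hk2 in T and Ldhb in B cells.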
